A study of Mus musculus with 8 samples.

Results

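Gene expression was examined in mouse embryonic stem cells after degradation of DHX35 for 4 h. The data were the 4 libraries of genotype DHX35-dTAG, out of 8 libraries in the series, chosen by genotype and treatment alone, and all 55291 genes of each count table were considered. Of these libraries, 2 came from cells given 200 nM dTAG-13 and 2 from cells given the solvent DMSO. The other 4 libraries, from a GPATCH1-dTAG line under the same 2 treatments, entered the fits to share 1 estimate of the spread and to show whether a response differed between the lines. In both lines the protein carries the FKBP12 F36V degron with a Flag tag, which dTAG-13 links to the E3 ligase receptor cereblon. Edited lines were picked as single colonies, and the labels do not say which clone was sequenced or whether the replicates were separate cultures, so p-values measure only the spread between these libraries. The cells are labelled E14, while their growth protocol names R1 cells, and they were grown on gelatin in serum with LIF and the inhibitors PD0325901 and CHIR99021. Untagged cells given dTAG-13 were not analysed here, so loss of the protein and other effects of the compound cannot be told apart.

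DHX35 is a DEAH-box RNA helicase, a motor that pulls on single-stranded RNA to take apart base-paired RNA. It is held with its activator GPATCH1, a G-patch protein, on spliceosomes that are taken out of splicing before the first catalytic step, and the WD40 protein WDR83 is purified with them. The spliceosome removes introns, and a further DEAH-box helicase, DHX15, acts with TFIP11 and GCFC2 to disassemble it. Splice junctions are not part of the counts, which are sums per gene, so splicing itself was not analysed here, and the comparison asks only which whole-gene levels moved.

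The edit was placed at the end of the Dhx35 coding sequence, and the sequence around it is shown because it locates the degron. Dhx35 (ENSMUSG00000027655.14) lies on the plus strand of chromosome 2 from 158794807 to 158858214 of GRCm38. Its stop codon at 158857122 to 158857124 is in the last exon, exon 21 of 21 or 22 of 22 in the 2 annotated coding transcripts. The window below has the stop codon in capitals, and the 20 bases of the guide used for the insertion are its last ones, from 158857120 to 158857139, starting 2 bases before the stop codon.
Dhx35, chr2:158857110-158857139, plus strand: gtccaagatcagTGAgtggagctcggcaag

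Dhx35 mRNA was at a like level in both treatments. It stood at 72.3 and 80.4 CPM (counts of the gene scaled to the TMM-adjusted size of the library) in DMSO replicates 1 and 2, and at 84.8 and 79.5 CPM in dTAG-13 replicates 1 and 2. The 2 groups overlapped, and the log2 fold change of dTAG-13 over DMSO was 0.11 (SE 0.09) with all libraries and 0.03 (SE 0.08) without DMSO replicate 1. The degron acts on the protein, so the mRNA level does not check that degradation took place, and protein levels were not analysed here. Gpatch1 separated the lines as labelled, at 23.2 to 25.6 CPM in the 4 DHX35-dTAG libraries and 6.90 to 7.31 CPM in the 4 GPATCH1-dTAG libraries.

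Replicate 1 in DMSO stood apart from the other DHX35-dTAG libraries. Its correlations with them across genes on the log2 CPM scale were 0.982 to 0.985, against 0.995 for each pair of the other 3. Total counts were 12765765 and 14173639 in DMSO and 12014203 and 13197149 in dTAG-13, so depth differed little. The share of counts on small nuclear, nucleolar and Cajal body RNAs was 0.366% in DMSO replicate 1 and 0.120% to 0.143% in each of the other 7 libraries of the series. The share on mitochondrial mRNAs was 0.272% in DMSO replicate 1 and 0.758% to 1.13% in the others. Counting error on these shares was small, with 95% Wilson intervals no wider than 0.0114 percentage points, which leave out every other source of error. Log2 fold changes and counts of dTAG-13 against DMSO in this line are therefore given with and without this library, in that order unless stated; without it, the lone DMSO library is assumed to vary as the other groups do.

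**Figure D1:**
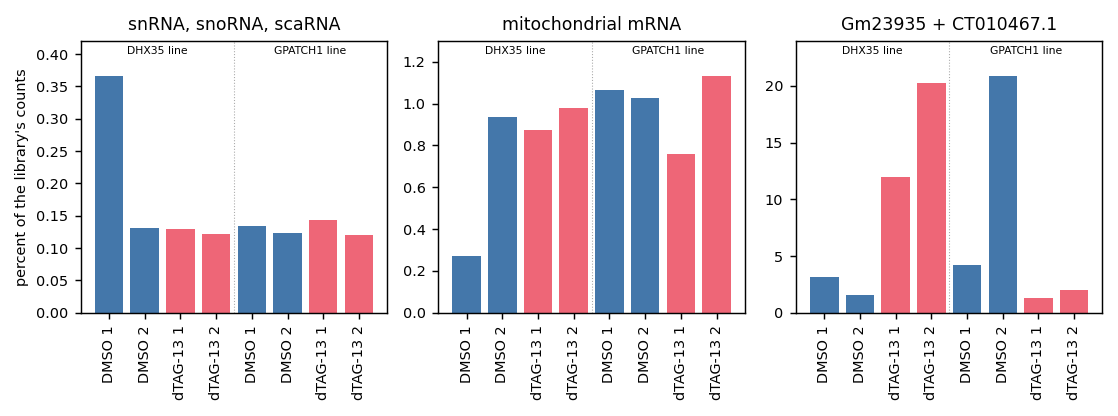
Percent of each library's counts (bars) on small nuclear, nucleolar and Cajal body RNAs, on mitochondrial mRNAs, and on Gm23935 and CT010467.1 together, for the 8 libraries (blue, DMSO; red, dTAG-13). DMSO replicate 1 of the DHX35 line stands apart in the first 2 panels, at 0.366% and 0.272%, and in the panel on the right both dTAG-13 libraries of that line, at 11.98% and 20.2%, are above both DMSO libraries, at 3.15% and 1.54%.

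Among the genes highest in DMSO replicate 1 were short RNAs that carry no poly(A) tail. Rprl3, a copy of the RNase P RNA, stood at 1300 CPM in that library and at 85.5 CPM in DMSO replicate 2, against 109 and 84.1 CPM in dTAG-13, which is 13.9-fold over the mean of the other 3. Rnu3a, a U3 small nucleolar RNA that guides early ribosomal RNA processing, stood at 542 CPM there against 75.1 to 98.5 CPM in the other 3, a ratio of 6.18. The lincRNA Gm17300 had a ratio of 5.98, the pseudogene CT010467.2 of 5.63 and the pseudogene Gm49017 of 5.30. The 5 genes lowest in it against the other 3, Gm24270, Gm24187, Lars2, Mir6236 and Gm15564, were low in both DMSO libraries and are taken up with the dTAG-13 values. Of all 16371 genes tested, 8081 were above the mean of the other 3 libraries in DMSO replicate 1 and 8290 below it. The median log2 ratio over all genes was -0.01. Of 53 snoRNAs and Cajal body RNAs tested, 43 were above the mean of the other 3 libraries in DMSO replicate 1, with a median log2 ratio of 0.56. Of 13 small nucleolar RNA host genes, such as Gas5, 10 were, with a median of 0.32. Among 10 mitochondrial mRNAs tested, 9 were below it, with a median of -2.01. The exception was mt-Nd6, the only one encoded on the other mitochondrial strand, at 174 CPM in DMSO replicate 1 and 76.9 CPM in DMSO replicate 2, against 62.8 and 78.9 CPM in dTAG-13. Genes annotated as antisense, of which 427 were tested, had a median log2 ratio of 0.44 in this library, and protein-coding genes had -0.02.

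Across all genes, degradation of DHX35 for 4 h gave no gene past the adjusted threshold when all 8 libraries were fitted. Of 16371 genes tested with edgeR's quasi-likelihood test, 0 (0%) had a Benjamini-Hochberg adjusted p under 0.05. At an unadjusted p under 0.05 there were 882 genes (5.39%), 397 higher (2.43%) and 485 lower (2.96%) in dTAG-13. Without DMSO replicate 1, 2 of 17037 genes (0.0117%) passed the adjusted threshold, both higher, and 783 (4.6%) had an unadjusted p under 0.05, 425 higher (2.49%) and 358 lower (2.1%). DESeq2 called 1 gene, Gm24270, with all libraries and 0 without DMSO replicate 1. Among the 9019 genes with at least 10 CPM, the median standard error of the log2 fold change was 0.12 with all libraries and 0.10 without that library, and 112 genes against 16 differed by more than 1.5-fold.

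**Figure D2:**
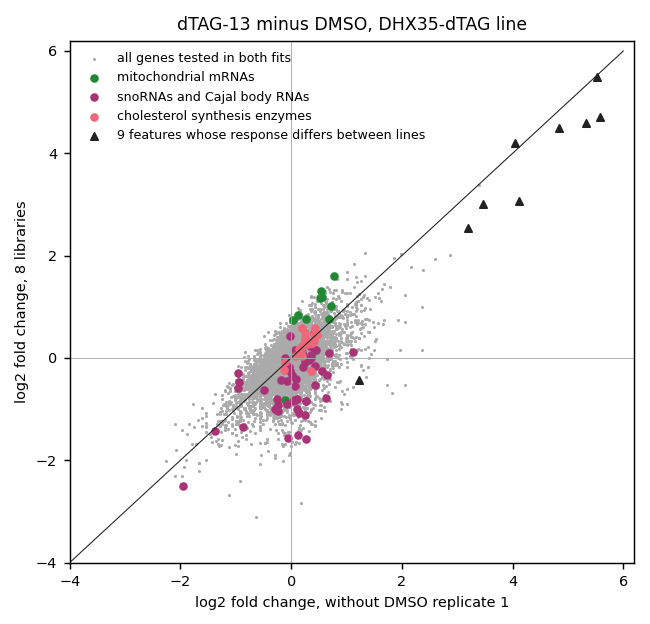
Log2 fold change of dTAG-13 over DMSO in the DHX35-dTAG line, fitted with all 8 libraries (vertical) and without DMSO replicate 1 (horizontal), each point a gene and the diagonal marking equal values. Mitochondrial mRNAs (green) lie mostly above the diagonal, with a median of 0.92 against 0.53, and snoRNAs and Cajal body RNAs (purple) mostly below it, with a median of -0.44 against 0.10, while cholesterol synthesis enzymes (red) keep near it, with medians of 0.29 and 0.25.

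The 2 genes that passed without DMSO replicate 1 were Gm25911 and Gm23935, short features annotated as miRNAs. Gm25911 stood at 55.2 and 25.4 CPM in DMSO and at 220 and 244 CPM in dTAG-13. Its log2 fold change was 3.19 (SE 0.45, adjusted p = 0.0185, edgeR) without DMSO replicate 1 and 2.53 (SE 0.53, adjusted p = 0.715) with it. Gm23935 took up a large part of the libraries, at 17558 and 10091 CPM in DMSO and 91414 and 131803 CPM in dTAG-13, with log2 fold changes of 3.47 (SE 0.53, adjusted p = 0.0281, edgeR) without and 3.01 (SE 0.60, adjusted p = 0.715) with DMSO replicate 1. For both features, both dTAG-13 values were above both DMSO values. The count of 2 was 10 or 11 when DMSO replicate 1 or 2 of the GPATCH1-dTAG line was left out as well, and 0 when either dTAG-13 library of that line was. A further pair of features of the same kind ranked with them. Gm24270 stood at 22.2 and 21.7 CPM in DMSO and 681 and 1307 CPM in dTAG-13, and Gm24187 at 4.36 and 5.53 CPM against 55.2 and 127 CPM.

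These 4 features are near-identical copies, which is shown by their sequences as read from the GENCODE M21 transcripts. In the lines below, capitals in Gm23935 mark the 3 bases at which a copy differs, and capitals in a copy mark its substituted base, with positions counted from 1 at the 5′ end of Gm23935.
Gm23935, chr16:11144125-11144181, plus strand: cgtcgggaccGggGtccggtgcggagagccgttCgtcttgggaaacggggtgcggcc
Gm24270, chr9:56223715-56223771, minus strand: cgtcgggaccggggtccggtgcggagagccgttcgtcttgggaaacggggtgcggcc
Gm24187, chr13:9834469-9834525, minus strand: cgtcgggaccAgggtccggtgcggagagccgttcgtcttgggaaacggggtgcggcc
Gm25911, chr1:167340369-167340424, minus strand: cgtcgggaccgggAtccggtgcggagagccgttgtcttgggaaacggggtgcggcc
Gm24270 had 0 differences from Gm23935 over 57 bases, Gm24187 had the substitution G11A, and Gm25911, of 56 bases, had G14A and lacked the base at position 34. Reads within Gm23935 and Gm24270 cannot be told apart by the sequence of the feature, and reads over the other copies can be only where they cover a differing base. Of the 38 words of 20 bases in Gm23935, 27 are also in Gm24187 and 4 in Gm25911. How the counting placed such reads is not given in the sources used here, so the counts of the copies are uncertain and may not be independent.

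A further 4 features were higher in both dTAG-13 libraries than in either DMSO library, as were 14.6% of all genes. CT010467.1, annotated as ribosomal RNA on chromosome 17, stood at 12185 and 3932 CPM in DMSO and at 31669 and 104185 CPM in dTAG-13. Lars2, the mitochondrial leucyl-tRNA synthetase, stood at 287 and 187 CPM against 2068 and 8687 CPM. Gm15564, an antisense feature, stood at 14.4 and 6.11 CPM against 89.1 and 398 CPM, and Mir6236 at 38.0 and 14.1 CPM against 198 and 1150 CPM. Lars2 and Gm15564 share 33 words of 20 bases, and CT010467.1 shares 0 such words with Lars2, Gm15564, Mir6236 or any of the 4 copies. Words were compared only among the features named here, so sharing with ribosomal sequence outside CT010467.1 was not tested. Whether the counts of Lars2 come from its mRNA was not tested either. In the GPATCH1-dTAG line the order was the other way round, with CT010467.1 at 5591 and 106509 CPM in DMSO and 3463 and 3349 CPM in dTAG-13, so that 1 DMSO library was far above the other 3. That library, with 139749 CPM of Gm23935, and both dTAG-13 libraries of the DHX35-dTAG line were the 3 highest of the 8 for both Gm23935 and CT010467.1. The order of the other 5 differed, since DMSO replicate 1 of the GPATCH1-dTAG line had 34541 CPM of Gm23935, above the 17558 CPM in DMSO replicate 1 of the DHX35-dTAG line, and less CT010467.1. Without DMSO replicate 1, the response differed between the lines for 9 features (0.0528% of genes tested, edgeR), which were the 4 copies, Lars2, Gm15564, Mir6236, CT010467.1 and Gm22513, annotated as a small nuclear RNA. Gm22513 stood at 264 and 49.6 CPM in DMSO and at 99.9 and 132 CPM in dTAG-13, so that its log2 fold change was -0.43 with DMSO replicate 1 and 1.23 without it. With all libraries it differed for 0 genes (0%), with 640 (3.91%) at an unadjusted p under 0.05, against 892 (5.24%) without that library, and DESeq2 gave 9 with all libraries. With each GPATCH1-dTAG library left out in turn, the count of 9 ranged from 4 to 17, and it was 10 without DMSO replicate 2 of that line. The libraries were depleted of ribosomal RNA, and the part that depletion had in the levels of CT010467.1 and of the other features named here was not tested.

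Transcripts of cholesterol synthesis enzymes lay mostly higher in dTAG-13 in both fits. The pathway makes cholesterol from acetyl-CoA, and its genes, with those for uptake of cholesterol from lipoproteins, are transcribed under SREBP2, whose processing is held back by INSIG1 when sterols are plentiful. Of 20 synthesis enzymes tested, 17 had a positive log2 fold change, 13 an unadjusted p under 0.05, all 13 higher (2.43% of all genes), and 13 did not overlap between the groups and were higher (14.6% of all genes). The median log2 fold change was 0.29, beside -0.01 over all genes. Without DMSO replicate 1, 18 were positive, 10 had an unadjusted p under 0.05 and were higher (2.49% of all genes), and the median was 0.25. No enzyme passed the adjusted threshold in either fit. This list was known from earlier results of these data, so its direction is not independent evidence.

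Insig1, the sterol sensor that retains the SREBP2 complex in the endoplasmic reticulum, stood at 64.2 and 63.2 CPM in DMSO and at 83.9 and 83.0 CPM in dTAG-13, with no overlap. Its log2 fold change was 0.39 (SE 0.08, adjusted p = 0.715, edgeR) with all libraries and 0.40 (SE 0.08, adjusted p = 0.178) without DMSO replicate 1, which did not stand apart for this gene. Cyp51, the lanosterol demethylase, stood at 47.4 and 45.9 CPM against 61.2 and 65.3 CPM, log2 fold changes of 0.44 and 0.46. Hmgcs1, a synthase early in the pathway, stood at 195 and 186 CPM against 213 and 245 CPM, log2 fold changes of 0.26 and 0.30. Sqle, the squalene epoxidase, stood at 98.4 and 115 CPM against 139 and 135 CPM, log2 fold changes of 0.35 and 0.25. For each of these enzymes, both dTAG-13 libraries were above both DMSO libraries.

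The enzymes that did not share the direction with all libraries, named after their values were seen, were Tm7sf2, Pmvk and Ebp. Ebp, a sterol isomerase, was lower without overlap, at 29.2 and 30.5 CPM in DMSO and 27.7 and 28.7 CPM in dTAG-13, a log2 fold change of -0.08. Pmvk, the phosphomevalonate kinase, had a log2 fold change of -0.25 with all libraries and 0.35 without DMSO replicate 1, since it stood at 24.8 CPM in that library and 12.1 CPM in DMSO replicate 2, against 15.7 and 15.1 CPM in dTAG-13. Tm7sf2, a sterol reductase, had -0.24 and -0.13. Srebf2, which encodes SREBP2, had 0.09 and 0.16, and the 7 genes of uptake and sensing had medians of 0.09 and 0.16.

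The GPATCH1-dTAG line, which has DMSO libraries of its own, gave a median of 0.29 for the same 20 enzymes. There Insig1 stood at 65.4 and 62.5 CPM in DMSO and 86.6 and 84.1 CPM in dTAG-13. The difference between the lines in the response was -0.03 for Insig1 on the log2 scale, with an adjusted p of 0.966 (edgeR). With all libraries, 1 of the 20 enzymes had an unadjusted p under 0.05 for that difference (edgeR), beside 640 (3.91%) of all genes. It was Nsdhl, a sterol dehydrogenase named here after its values were seen. In the DHX35-dTAG line Nsdhl stood at 13.3 and 16.3 CPM in DMSO and at 20.3 and 18.7 CPM in dTAG-13. Both lines were given the same compound, and loss of either protein and the compound itself cannot be told apart as the source of the shared values.

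**Figure D3:**
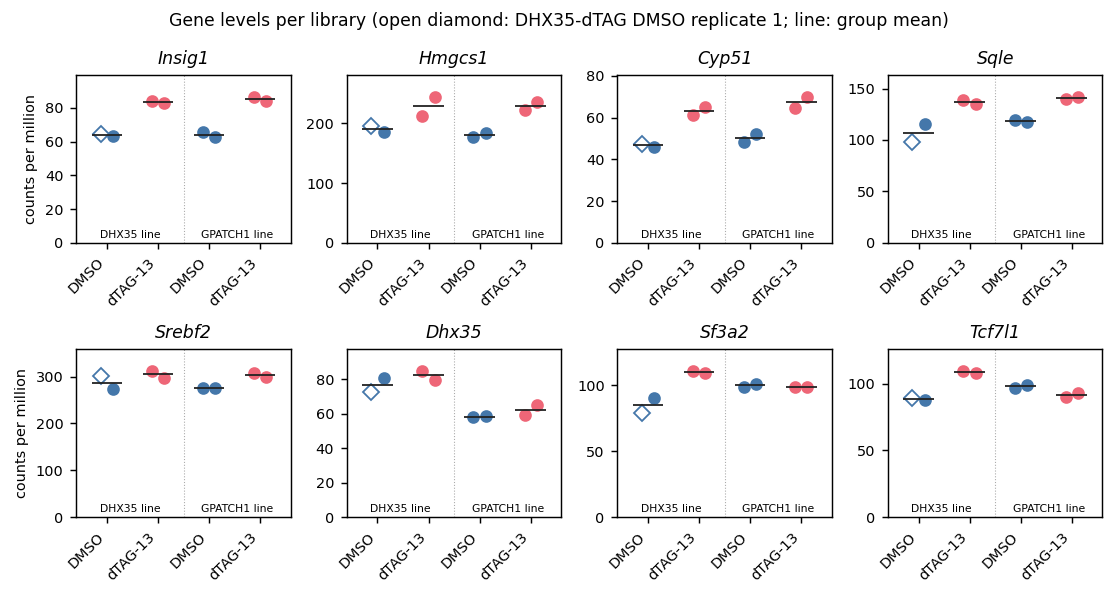
Levels in CPM (vertical, from 0) of 8 genes in each of the 8 libraries, with DMSO in blue, dTAG-13 in red, DMSO replicate 1 of the DHX35 line as an open diamond and group means as lines. Insig1, Hmgcs1, Cyp51 and Sqle are above DMSO in both lines, Srebf2 is close to it, with a log2 fold change of 0.09 in the DHX35 line, Dhx35 overlaps between treatments in the DHX35 line, and Sf3a2 and Tcf7l1 are above DMSO in the DHX35 line, with log2 fold changes of 0.38 and 0.30, and not in the GPATCH1 line, with -0.02 and -0.10.

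Outside the cholesterol pathway, Sf3a2 and Tcf7l1 ranked high in both fits. Sf3a2, a subunit of the SF3a complex that joins the U2 small nuclear ribonucleoprotein to the branch site, stood at 79.2 and 90.6 CPM in DMSO and at 111 and 109 CPM in dTAG-13. Its log2 fold change was 0.38 (SE 0.09) with all libraries and 0.29 (SE 0.08) without DMSO replicate 1, beside -0.02 in the GPATCH1-dTAG line, and the difference between lines had an adjusted p of 0.862 (edgeR). DMSO replicate 1 was the lowest of the 4 libraries for this gene. Tcf7l1, a repressor of Wnt target genes that is abundant in embryonic stem cells, stood at 89.3 and 87.8 CPM against 110 and 108 CPM, log2 fold changes of 0.30 and 0.31. Across both fits the adjusted p was at least 0.715 for Sf3a2 and at least 0.687 for Tcf7l1 (edgeR). In the GPATCH1-dTAG line Tcf7l1 stood at 96.7 and 99.2 CPM in DMSO and 90.0 and 92.8 CPM in dTAG-13, so that neither line overlapped and the directions were opposite. Over all genes tested, 1016 (6.21%) showed opposite directions without overlap in either line and 977 (5.97%) the same direction.

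By the rule of no overlap between groups and an unadjusted p under 0.05 in both fits, 31 genes of at least 5 CPM were lower and 124 higher. Absence of overlap alone was common at 2 libraries a group, with 4704 genes (28.7%), of which 2395 (14.6%) were higher and 2309 (14.1%) lower. At an unadjusted p under 0.05 alone (edgeR), 397 of all genes (2.43%) were higher and 485 (2.96%) lower with all libraries. The 2 fits share most of their libraries, so passing both is not independent support. The share among genes of at least 5 CPM is not reported here. Wdr38, a WD40-repeat gene, came first among the lower ones, at 19.9 and 15.0 CPM in DMSO and 10.9 and 10.6 CPM in dTAG-13, log2 fold changes of -0.69 with all libraries and -0.48 without DMSO replicate 1. Gspt2, a paralog of the translation termination factor eRF3, stood at 16.8 and 18.2 CPM against 13.6 and 13.8 CPM, log2 fold changes of -0.36 and -0.41. Pygm, the muscle glycogen phosphorylase, stood at 7.69 and 7.84 CPM against 5.81 and 5.13 CPM, log2 fold changes of -0.50 and -0.52. Pex7, an import receptor of peroxisomes, stood at 23.1 and 23.4 CPM against 19.1 and 18.6 CPM, log2 fold changes of -0.30 and -0.31. The others were Fsbp, Gm48353, Abtb2, AC160336.1, Gm45552 and Acap1, with log2 fold changes from -0.79 to -0.33 with all libraries and from -0.53 to -0.32 without DMSO replicate 1. Adjusted p was 0.715 for each of the 10 with all libraries (edgeR).

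Genes of the DHX35 unit and of disassembly had medians near 0. Of 11 tested, 5 had a positive and 6 a negative log2 fold change, 0 had an unadjusted p under 0.05 in either fit, and the medians were -0.02 and 0.00. Over all genes, 882 (5.39%) had an unadjusted p under 0.05 with all libraries (edgeR), so 0 among these 11 is near that share. Wdr83 was the widest of the list, at 29.9 and 14.3 CPM in DMSO and 15.2 and 13.8 CPM in dTAG-13. Its log2 fold change of -0.60 was thus 0.02 without DMSO replicate 1. Sde2, which helps dock DHX15 on the spliceosome, stood at 128 and 107 CPM against 96.4 and 105 CPM, log2 fold changes of -0.23 and -0.09. Dhx15 stood at 340 and 330 CPM against 302 and 335 CPM, and Gpatch1 at 25.6 and 23.4 CPM against 23.2 and 23.7 CPM, so both groups overlapped. Tfip11, which activates DHX15, had log2 fold changes of 0.03 and 0.02, and its partner Gcfc2 of 0.00 and -0.16. Cwf19l1, Cwf19l2, Syf2 and Xab2 lay between -0.19 and 0.12 with all libraries and between -0.15 and 0.05 without DMSO replicate 1.

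The other splicing lists were near 0 too. The 15 spliceosomal RNA helicases, among them Dhx16, Dhx38 and Dhx8 of the catalytic stages, had a median log2 fold change of -0.03 with all libraries and 0.02 without DMSO replicate 1, and at an unadjusted p under 0.05 there were 0 with all libraries and 1 higher, Dhx8, without DMSO replicate 1. The 25 proteins of the active site and the Prp19 complex had 0.04 and 0.03, with 2 higher and 1 lower at that p in the first fit and 1 higher in the second. The 14 proteins of U2 and SF3 had -0.04 and 0.04, with 2 higher in the first fit, Sf3a1 and Sf3a2, and 3 in the second, Sf3a2, Sf3a3 and Sf3b5, most of them named after their values were seen. The 20 G-patch proteins had 0.00 and 0.01, with 1 in each direction in the first fit and 2 higher in the second. The 13 SR proteins, which bind exonic enhancers, had -0.09 and -0.02, with 0 in either fit. Of 10 factors of nonsense-mediated decay, which removes transcripts with early stop codons, 0 had an unadjusted p under 0.05 in either fit, and the medians were 0.01 and -0.01. Beside these counts, 2.43% of all genes were higher and 2.96% lower at that p with all libraries, and 2.49% and 2.1% without DMSO replicate 1.

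Lists tied to other states of the cell were mixed. The 14 p53 targets tested had medians of -0.08 and 0.03, with Cdkn1a at 67.3 and 59.6 CPM in DMSO and 63.7 and 58.6 CPM in dTAG-13. The 14 heat shock genes had 0.06 in both fits, with 10 positive with all libraries and 13 without DMSO replicate 1. Over all genes, 7936 of 16371 were positive with all libraries. Without DMSO replicate 1, where each sign rests on the lone DMSO library, 8625 of 17037 were. The 17 targets of the integrated stress response, in which ATF4 drives amino acid synthesis genes, had 0.07 with all libraries, with 9 positive, and 0.20 without DMSO replicate 1, with 17 positive. Of these, 1 was higher at an unadjusted p under 0.05 with all libraries, Chac1 (2.43% of all genes), and 1 without DMSO replicate 1, Nupr1 (2.49%), both named after their values were seen. The 11 immediate early genes tested had 0.15 and 0.20. At an unadjusted p under 0.05, 1 of them was higher with all libraries, Myc (2.43% of all genes), and 3 were without DMSO replicate 1, Myc, Junb and Zfp36 (2.49%), all named after their values were seen. Myc, a growth regulator, stood at 46.5 and 41.7 CPM against 53.4 and 52.2 CPM, while Fos stood at 2.14 and 3.15 CPM against 4.45 and 3.18 CPM. The 10 genes of the ubiquitin machinery that dTAG-13 recruits, cereblon included, had 0.01 and -0.04, with 0 at that p in either fit. Cytosolic ribosomal protein genes, 85 of them, had -0.01 with 41 positive, and 0.06 with 73 positive. The 63 replication-dependent histone genes, listed by both naming styles of the tables, had 0.06 and 0.09.

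**Figure D4:**
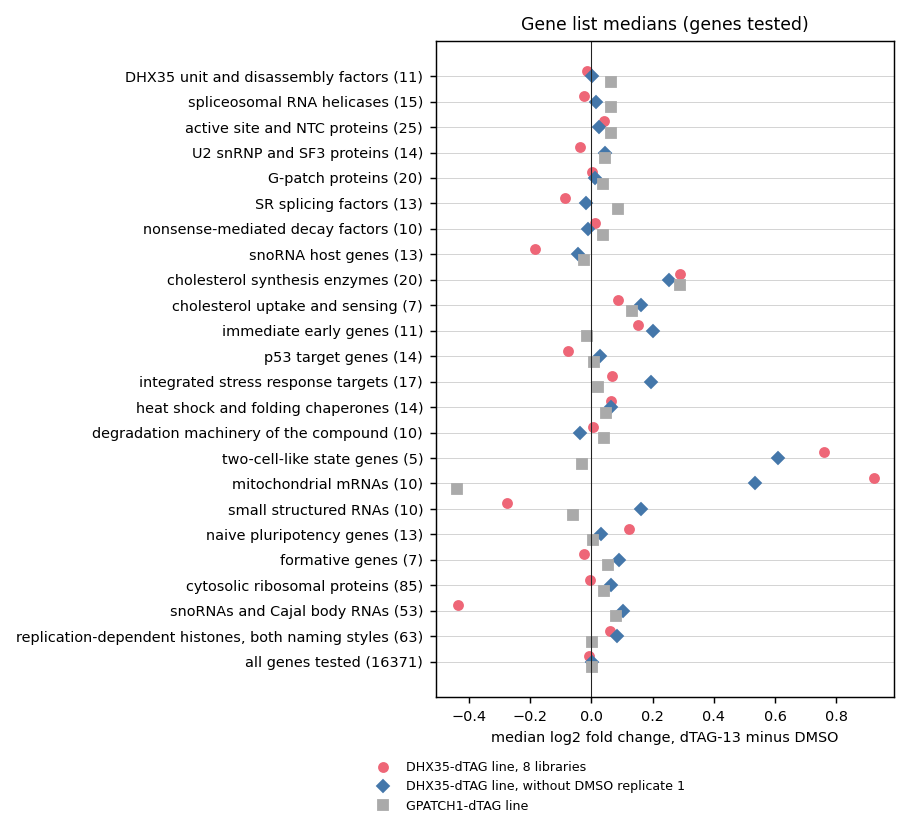
Median log2 fold change of dTAG-13 over DMSO (horizontal) for each gene list, with the number of genes tested in parentheses, for the DHX35-dTAG line with all libraries (red), without DMSO replicate 1 (blue) and the GPATCH1-dTAG line (gray). Cholesterol synthesis enzymes lie at 0.29, 0.25 and 0.29, whereas mitochondrial mRNAs lie at 0.92, 0.53 and -0.44 and snoRNAs and Cajal body RNAs at -0.44, 0.10 and 0.08.

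Among the lists with at least 10 genes tested, the medians of snoRNAs and Cajal body RNAs, of small structured RNAs and of mitochondrial mRNAs moved most when DMSO replicate 1 was left out, by 0.54, 0.44 and 0.39. The 2 fibroblast genes tested moved by 0.48. mt-Nd1, a subunit of respiratory complex I, stood at 280 and 1024 CPM in DMSO and at 1190 and 1763 CPM in dTAG-13, and its log2 fold change was 1.18 with that library and 0.53 without it. mt-Co1, of complex IV, stood at 1138 and 5319 CPM against 5026 and 5831 CPM, with 0.75 and 0.03. mt-Nd5 was less affected, at 435 and 489 CPM against 651 and 916 CPM, with 0.76 and 0.68. Of 10 mitochondrial mRNAs tested, 5 were higher and 1, mt-Nd6, lower at an unadjusted p under 0.05 with all libraries, and 6 higher and 0 lower without it. Over all genes, 2.43% were higher and 2.96% lower at that p with the library, and 2.49% and 2.1% without it. The 2 mitochondrial ribosomal RNAs had a median of 0.42 and 0.74. In the GPATCH1-dTAG line the median of the mRNAs was -0.44. There, as for CT010467.1, the direction was opposite to that in the DHX35-dTAG line. For the 53 snoRNAs and Cajal body RNAs tested, of 147 in the tables, the median was -0.44 with 39 negative, and 0.10 with 35 of 57 positive without DMSO replicate 1. Rn7sk, the 7SK RNA that holds back transcription elongation, stood at 6661 and 3981 CPM in DMSO and 4439 and 4570 CPM in dTAG-13, log2 fold changes of -0.24 and 0.18.

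The cells carried the markers of their label. Pou5f1, the pluripotency factor OCT4, stood at 1087 and 780 CPM in DMSO and at 821 and 772 CPM in dTAG-13, Nanog at 467 and 577 CPM against 567 and 592 CPM, and Sox2 at 244 and 272 CPM against 278 and 284 CPM. The 13 naive genes had medians of 0.12 and 0.03, and the 7 formative genes tested -0.03 and 0.09. At an unadjusted p under 0.05, 1 naive and 1 formative gene were higher in each fit, beside 2.43% and 2.49% of all genes. The naive gene was Klf5 with all libraries and Klf2 without DMSO replicate 1, and the formative gene was Otx2 in both fits, each named after its values were seen. The fibroblast genes Col3a1, Postn and Lum were at 0 counts in all 4 libraries, for which a count of 0 allows a level of up to 0.212 to 0.250 CPM of the raw total (3 counts). All 7 fibroblast genes summed to 3.25 to 5.76 CPM, and the 6 endoderm genes to 5.25 to 6.50 CPM. Genes of mesoderm and neural cells summed to 28.2 to 33.3 CPM and of trophoblast to 22.7 to 31.9 CPM, mostly Eomes. The 5 genes tested of the 2-cell-like state, a rare state of these cultures marked by Zscan4 genes, had a median of 0.76 with all libraries and, over 7 tested, of 0.61 without DMSO replicate 1, beside -0.03 in the GPATCH1-dTAG line. Zscan4c stood at 0.739 and 1.48 CPM in DMSO and at 1.71 and 2.12 CPM in dTAG-13, log2 fold changes of 0.76 and 0.37, and Zscan4f at 0.665 and 0.450 CPM against 1.11 and 1.59 CPM, log2 fold changes of 1.28 and 1.56, which is 7 to 24 counts a library for these 2 genes. Zscan4d overlapped between the groups, at 1.77 and 2.96 CPM against 3.33 and 2.48 CPM, with log2 fold changes of 0.28 and -0.02. The Zscan4 genes are near-identical copies of one another, so their counts are uncertain, and of 11 listed genes 6 were too low to be tested with all libraries and 4 without DMSO replicate 1.

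Protein-coding genes were last set apart by their number of introns, since DHX35 acts in splicing and genes without introns do not pass through the spliceosome. The 289 intronless genes had a median log2 fold change of -0.11 with all libraries, and the medians went up with intron number to 0.03 for the 1642 genes with at least 21 introns. The medians no longer went up without DMSO replicate 1, with 0.03 in intronless genes, 0.05 in genes with 1 to 2 introns, the highest class, and -0.02 in genes with at least 21 introns, the lowest. In the GPATCH1-dTAG line they were -0.02 in intronless genes, -0.04 with 1 to 2 introns and 0.02 with at least 21. Intronless minus intron-containing genes gave -0.12 with all libraries, 0.02 without DMSO replicate 1 and -0.03 in the GPATCH1-dTAG line, so that the sign in the DHX35-dTAG line rested on 1 library. Relative to the mean of the other 3 libraries, intronless genes had a median log2 ratio of 0.18 in DMSO replicate 1 and genes with at least 21 introns -0.09. Of all 12776 protein-coding genes tested, 4.63% had an unadjusted p under 0.05 with all libraries (edgeR). The shares of all genes given next include noncoding genes. By unadjusted p under 0.05, 8.65% of intronless genes and 3.17% of genes with at least 21 introns passed with all libraries, beside 5.39% of all genes, and 7.19% and 3.00% did without DMSO replicate 1, beside 4.6%.

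**Figure D5:**
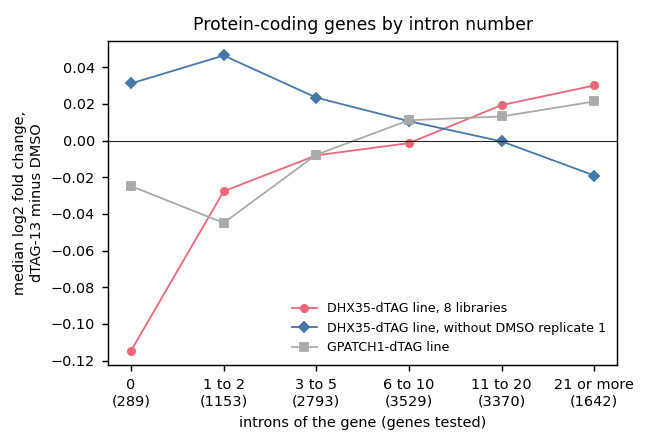
Median log2 fold change of dTAG-13 over DMSO (vertical) of protein-coding genes by number of introns (horizontal, genes tested in parentheses), for the DHX35-dTAG line with all libraries (red), without DMSO replicate 1 (blue) and the GPATCH1-dTAG line (gray). The red line goes from -0.11 to 0.03 and the blue line from 0.03 to -0.02 with its highest value, 0.05, at 1 to 2 introns, while the gray line goes from -0.02 to 0.02.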

How the data were processed

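The authors removed ribosomal RNA, added human DLD-1 RNA as a spike-in, made stranded libraries, trimmed reads with Trim Galore 0.6.6 and aligned them with STAR 2.7.5c to mm10 and hg19. The authors deposited whole-number counts per gene, not normalized, 1 table per library; the counting program, annotation and strand setting are not given in the sources used here, so antisense, overlapping and near-identical genes are uncertain. Of 55291 symbols, 53292 matched GENCODE M21. The test was edgeR's quasi-likelihood test (version 4.0.16, R 4.3.3; glmQLFit, glmQLFTest, TMM, filterByExpr on 4 groups, 1 term per group, Benjamini-Hochberg threshold 0.05), tested on simulated data. Alternatives were DESeq2 1.42.0, its size factors, limma-voom (limma 3.58.1) with sample weights, other filters, only the 4 libraries, a replicate block and each DHX35-dTAG library left out; leaving out each GPATCH1-dTAG library, and removing annotated ribosomal RNA with the features that differ between the lines, were added after seeing the data. Genes named were the first 3 of each list and all of the DHX35 unit, up to 10 in each direction by p among genes of at least 5 CPM without overlap, those called, and the 5 highest and lowest in DMSO replicate 1 (at least 10 CPM, pseudocount 0.5). Members and lists were chosen with earlier results of these data known. Replicates were not duplicates (chi-square per gene 4.93 to 121). Human reads were not used here, and some genes that this rule names are not reported here.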

Additional observations from a re-analysis of the deposited data

Results flagged for a closer look

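Without DMSO replicate 1 of the DHX35-dTAG line, the response to dTAG-13 differed between the lines (edgeR interaction, adjusted p from 0.000157 to 0.0338) for 9 features, of which CT010467.1 is annotated as ribosomal RNA. The log2 difference of the responses, DHX35-dTAG minus GPATCH1-dTAG, was 10.4 for Gm24270, 6.32 for Gm23935, 5.30 for Gm25911 and 8.04 for Gm24187, which are near-identical copies. It was 9.94 for Lars2, 11.2 for Mir6236 and 10.2 for Gm15564. With all libraries no adjusted p passed, and DMSO replicate 2 of the GPATCH1-dTAG line was the highest of its 4 libraries for each of these 7 features.

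Tcf7l1, Pygm and Acap1 differed between treatments in opposite directions in the 2 lines without overlap in either line. With all libraries, the log2 difference of the responses was 0.40 for Tcf7l1, -0.83 for Pygm and -0.52 for Acap1, each with an adjusted p of 0.862 (edgeR interaction). Without DMSO replicate 1 of the DHX35-dTAG line it was 0.41, -0.85 and -0.40 in that order. Of all 16371 genes tested, 1016 (6.21%) had that pattern and 977 (5.97%) had no overlap with the same direction in both lines.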

How the results depend on the processing

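The count of genes changed by dTAG-13 in DHX35-dTAG cells, 0 with all libraries, was 1 with DESeq2, 1 with only the 4 DHX35-dTAG libraries and 345 with no expression filter, and it ranged from 0 to 4949 with 1 of the 8 libraries left out at a time. It was 4949 without DMSO replicate 2, where the library that stands apart is the lone DMSO library, 2 without DMSO replicate 1, 0 without either dTAG-13 library, and 1 without either DMSO library of the GPATCH1-dTAG line and 0 without either dTAG-13 library of that line. Genes with an unadjusted p under 0.05, 882, were 472 with DESeq2, 2413 with no filter, 296 with only the 4 libraries and 474 with limma-voom, and 490 to 6675 with 1 library left out. The count for a different response in the lines, 0, was 9 with DESeq2, 140 with no filter, and 0 to 3592 with 1 of the 8 libraries left out, 3592 being without DMSO replicate 2, 9 without DMSO replicate 1, and 7 and 1 without DMSO replicates 1 and 2 of the GPATCH1-dTAG line. Same-numbered replicates had correlated deviations of 0.036 to 0.298, over 0.1 in 4 of 6 pairs of groups and not in the other 2, and the labels name no shared batch, so the numbers were not taken as pairs; whether they mark one is not known. A replicate block left 0 genes changed and gave 2 for the difference between lines. Without DMSO replicate 1, the 2 genes changed became 0 with DESeq2, with limma-voom and with a minimum of 10 counts per library, 30 with no filter, and 0 to 11 with each GPATCH1-dTAG library left out as well. The 9 differing features became 3, 2 and 3 in that order, 40 with no filter, and 4 to 17 with those libraries left out. Removing annotated ribosomal RNA and the 9 features, chosen after seeing the data, gave 0 for both counts, by construction, since the 2 genes are among the 9. DESeq2's size factors kept these 5 counts within 1.5 times. Of 110 named genes tested in both fits, 32 had the other sign without DMSO replicate 1. Of these, 4 had an unadjusted p under 0.05 with all libraries, and with 1 library left out they ranged from -1.36 to 0.055 for Scarna2, -1.60 to 0.11 for Snord17, -3.74 to 0.18 for Rprl3 and -2.41 to 0.081 for Gm49017. The median of the cholesterol synthesis enzymes was between 0.24 and 0.32 under every alternative run. Intronless minus intron-containing genes, -0.12, changed sign to 0.024 without DMSO replicate 1 and was -0.23 without DMSO replicate 2. The cause of these moves was not tested.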
